A study of Mus musculus with 20 samples.

Results

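Manf, Creld1, Creld2, Nucb1, Nucb2 and Sdf4 encode proteins of the secretory pathway that are made in or pass through the endoplasmic reticulum (ER), and several of them can leave the cell. They are 6 of the 22180 genes measured here in mouse liver, and they were selected by exact gene symbol as stress-induced ER-lumen proteins, with the response to tunicamycin in these same livers already known. Tunicamycin inhibits the addition of N-linked sugars to new proteins and thereby causes unfolded glycoproteins to collect in the ER. The levels with tunicamycin and with vehicle are therefore given as a description without a test, and the members are tested only in the comparisons of genotype, which the selection rule did not use.

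The study asked how the loss of NFIL3, a basic leucine zipper transcription factor, alters the response of the liver to ER stress. Livers came from adult male mice of C57Bl6 background (C57BL/6J in the study's methods) in 4 groups of 5 mice, NFIL3 KO given tunicamycin, NFIL3 KO given vehicle, WT given tunicamycin and WT given vehicle. Tunicamycin was given at 1 µg/g for 8 h and the vehicle was dextrose. The knockout covers the whole body and is not restricted to hepatocytes, and the RNA is from whole liver, in which fewer cells of a type and less RNA per cell cannot be told apart. The labels give no batch of animals, RNA or arrays. Each liver was hybridised to 1 array that reads 41345 probesets, and values are on the log2 scale, where a difference of 1 is a doubling.

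The unfolded protein response is the set of signals, sent by the ER membrane sensors Atf6, Ern1 and Eif2ak3, that raises the folding capacity of the ER. Among its targets are chaperones that stay in the ER lumen through a C-terminal retrieval signal read by the KDEL receptors, and a smaller group of proteins that escape this retrieval and act outside the cell. MANF, mesencephalic astrocyte-derived neurotrophic factor, binds the chaperone Hspa5 in the ER and acts as a protective factor when released. CRELD2 is a cysteine-rich ER protein with EGF-like domains and disulfide isomerase activity, and the related CRELD1 is anchored in the membrane. The nucleobindins are calcium-binding proteins with EF hands, of which NUCB1 resides mainly in the Golgi and NUCB2 is the precursor of the appetite-regulating peptide nesfatin. SDF4 is a calcium-binding protein of the Golgi lumen in the CREC family.

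Nfil3 itself was measured first. Its level averaged 5.25 ± 0.46 in NFIL3 KO livers with tunicamycin and 7.99 ± 0.47 in WT livers with tunicamycin (SD, n = 5 each). With vehicle it averaged 5.41 ± 0.20 in NFIL3 KO livers and 6.44 ± 0.45 in WT livers. Within each treatment every NFIL3 KO array lay below every WT array. The sources used here do not say whether its probes cover the segment removed in the knockout. The array medians lay between 4.65 and 4.77. NFIL3 KO tunicamycin replicate 3 stood apart on the first principal component of all genes. It was at 16.7, against 47.1 to 57.1 for the other 4 arrays of its group. For Manf, the NFIL3 KO difference between tunicamycin and vehicle and the genotype difference with tunicamycin are also given without it. For Nucb2, the genotype difference with tunicamycin is. The 8 hepatocyte markers measured had a mean level over the list of 11.9 to 12.0 in NFIL3 KO livers with tunicamycin and 12.1 to 12.2 in NFIL3 KO livers with vehicle, and of 11.9 to 12.0 in WT livers with tunicamycin and 12.2 to 12.3 in WT livers with vehicle. With tunicamycin, 4 of the 8 fell in each genotype, beside 13.7% of all genes in each. The 8 Kupffer cell markers ranged from 6.89 to 7.66 in NFIL3 KO livers with tunicamycin and 7.22 to 7.58 in NFIL3 KO livers with vehicle, and from 7.26 to 7.64 in WT livers with tunicamycin and 6.71 to 7.92 in WT livers with vehicle. Of these, 2 rose with tunicamycin in WT livers, beside 13.7% of all genes, and 0 in NFIL3 KO livers, beside 13.5%. The difference in this response between genotypes was called for 0 of the 8 Kupffer cell markers. The part of these shifts in the levels of the members was not tested.

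The bases upstream of the members are shown because the genes were selected as stress-induced and the classical stress elements can be read from the letters. Windows of 250 bases before to 50 bases after each RefSeq gene start (build GRCm38.p6) were held for 5 of the 6 members (Creld1, Creld2, Nucb1, Nucb2 and Sdf4), and Sdf4 had several starts. In 5′ to 3′ direction of each gene, capitals mark an ER stress response element in Creld2 and the shorter ERSE-II in Nucb1, and the window of Nucb2 is shown as that of the member with the highest ratio of tunicamycin to vehicle.
Creld2, chr15:88819396-88819695, plus strand: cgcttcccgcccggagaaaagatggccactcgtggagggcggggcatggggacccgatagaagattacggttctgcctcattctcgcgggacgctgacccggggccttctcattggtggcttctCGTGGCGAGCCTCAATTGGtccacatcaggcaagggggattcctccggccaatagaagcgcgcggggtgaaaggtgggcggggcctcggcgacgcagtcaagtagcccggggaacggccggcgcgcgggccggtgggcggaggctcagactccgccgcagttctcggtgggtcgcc
Nucb1, chr7:45510359-45510658, minus strand: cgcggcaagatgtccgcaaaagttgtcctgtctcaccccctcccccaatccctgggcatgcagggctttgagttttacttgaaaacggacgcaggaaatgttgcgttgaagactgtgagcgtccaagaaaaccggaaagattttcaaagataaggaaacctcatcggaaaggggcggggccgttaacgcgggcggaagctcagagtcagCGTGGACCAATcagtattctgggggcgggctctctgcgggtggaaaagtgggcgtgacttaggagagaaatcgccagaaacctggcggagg
Nucb2, chr7:116504119-116504418, plus strand: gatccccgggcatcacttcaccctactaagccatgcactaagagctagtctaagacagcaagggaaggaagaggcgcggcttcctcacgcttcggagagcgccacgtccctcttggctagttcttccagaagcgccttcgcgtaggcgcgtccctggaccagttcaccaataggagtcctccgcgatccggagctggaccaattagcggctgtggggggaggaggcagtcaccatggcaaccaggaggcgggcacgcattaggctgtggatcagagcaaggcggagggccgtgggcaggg

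The ER stress response element (ERSE) was searched as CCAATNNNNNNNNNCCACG and ERSE-II as ATTGGNCCACG, on both strands. Both elements hold CCACG, and ERSE-II carries CCAAT on the opposite strand from it. ERSE was found in 39 of 32851 mouse windows of the same length (0.119%) and, among the members, in Creld2, on the reverse strand at bases -126 to -108 from the start. Of 25 ER chaperone genes with a window, 7 held it (Calr, Canx, Dnajc3, Ero1b, Hsp90b1, Hspa5 and Pdia6). ERSE-II was found in 12 windows (0.0365%) and, among the members, in Nucb1, on the reverse strand at bases -41 to -31. The chaperone gene with ERSE-II was Dnajb11. A UPRE core (TGACGTGG, 0.676% of windows), an ATF4-type composite (TGATGNAAN, 3.95%) and an NFIL3-type site (TTANGTAA, 2.32%) matched in 0 of the 5 members with a window. A match is a description of the letters in these windows.

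**Figure D1:**
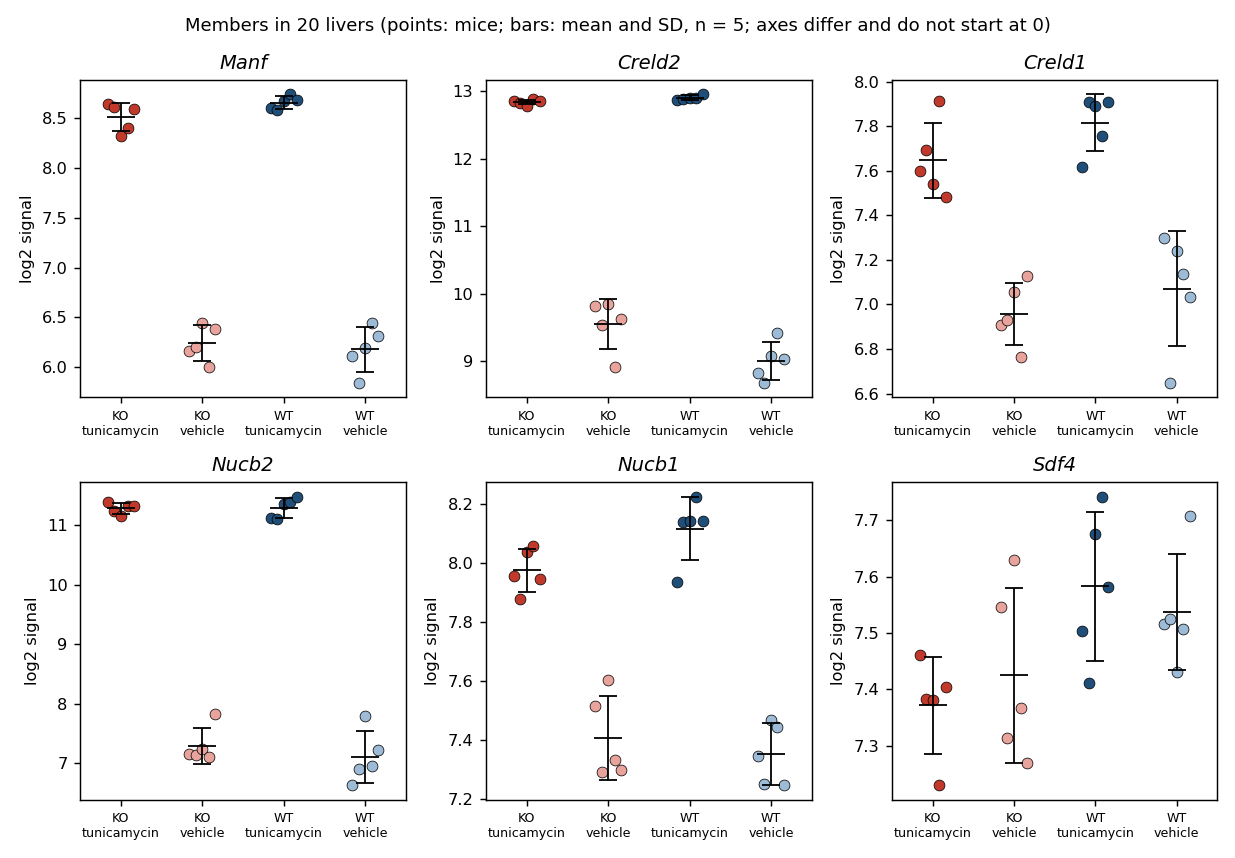
Levels of the 6 genes in every liver. The vertical axis of each panel is the log2 signal and differs between panels, the horizontal axis gives the 4 groups, points are mice and bars are the mean and SD of 5 mice. In 5 of the 6 panels every tunicamycin array lies above every vehicle array of the same genotype, and in the Sdf4 panel they overlap.

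Manf was higher with tunicamycin in both genotypes. In NFIL3 KO livers it was at 8.64, 8.62, 8.32, 8.40 and 8.59 with tunicamycin and at 6.17, 6.20, 6.45, 5.999 and 6.39 with vehicle. In WT livers it was at 8.60, 8.59, 8.67, 8.74 and 8.68 with tunicamycin and at 6.11, 5.84, 6.19, 6.44 and 6.31 with vehicle. The tunicamycin and vehicle arrays were separated by a wide gap in each genotype, and the NFIL3 KO and WT arrays overlapped under both treatments. The fitted log2 difference between tunicamycin and vehicle was 2.27 ± 0.11 (SE) in NFIL3 KO livers, a ratio of 4.84, and 2.48 ± 0.11 in WT livers, a ratio of 5.57. Without NFIL3 KO tunicamycin replicate 3, which held the lowest Manf level of its group, the NFIL3 KO difference was 2.32 ± 0.11.

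Creld2 was the member whose level came closest to the top of the arrays, where the highest value of any probeset was 13.7. In NFIL3 KO livers it was at 12.85, 12.83, 12.79, 12.88 and 12.85 with tunicamycin and at 9.82, 9.53, 9.85, 8.92 and 9.63 with vehicle. In WT livers it was at 12.87, 12.88, 12.90, 12.91 and 12.96 with tunicamycin and at 8.83, 8.68, 9.08, 9.42 and 9.04 with vehicle. The tunicamycin arrays were packed together near a common level in both genotypes, and the vehicle arrays were lower and spread out. The SD was 0.035 with tunicamycin and 0.374 with vehicle in NFIL3 KO livers, where the median SD over all genes was 0.196 and 0.171. In WT livers the SD was 0.0345 with tunicamycin and 0.279 with vehicle, beside medians over all genes of 0.186 and 0.173. Whether the narrow spread with tunicamycin comes from the array's range was not tested. The log2 difference between tunicamycin and vehicle was 3.29 ± 0.14 in NFIL3 KO livers, a ratio of 9.77, and 3.89 ± 0.14 in WT livers, a ratio of 14.9.

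Creld1, the membrane-anchored relative of Creld2, differed less between tunicamycin and vehicle. Its level in NFIL3 KO livers was 7.60, 7.70, 7.54, 7.91 and 7.48 with tunicamycin and 6.91, 6.93, 7.06, 6.77 and 7.13 with vehicle. The WT livers had levels of 7.62, 7.91, 7.89, 7.76 and 7.91 with tunicamycin and 7.30, 6.65, 7.24, 7.14 and 7.03 with vehicle. No tunicamycin array overlapped the vehicle arrays of its genotype. The log2 difference was 0.69 ± 0.12 in NFIL3 KO livers, a ratio of 1.61, and 0.74 ± 0.12 in WT livers, a ratio of 1.68.

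Nucb2 had the highest ratio of tunicamycin to vehicle of the 6 genes in both genotypes. In NFIL3 KO livers its level was 11.38, 11.23, 11.15, 11.33 and 11.31 with tunicamycin and 7.15, 7.13, 7.25, 7.11 and 7.84 with vehicle. The WT livers were at 11.12, 11.10, 11.36, 11.40 and 11.48 with tunicamycin and at 6.63, 6.91, 7.80, 6.96 and 7.23 with vehicle. A vehicle array in each genotype, NFIL3 KO replicate 5 and WT replicate 3, stood above the others of its group and was still far below every tunicamycin array. The log2 difference was 3.99 ± 0.17 in NFIL3 KO livers, a ratio of 15.8, and 4.19 ± 0.17 in WT livers, a ratio of 18.2. By the size of a positive log2 difference, Nucb2 ranked 8 in NFIL3 KO livers and 11 in WT livers among 22180 genes. Creld2 ranked 19 in NFIL3 KO livers and 15 in WT livers, and Manf ranked 70 in NFIL3 KO livers and 62 in WT livers.

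Nucb1, the Golgi nucleobindin reported to restrain the activation of Atf6, was higher with tunicamycin by a smaller amount. Its level in NFIL3 KO livers was 7.96, 7.88, 8.04, 8.06 and 7.95 with tunicamycin and 7.52, 7.29, 7.60, 7.33 and 7.30 with vehicle. In WT livers the level was 7.93, 8.14, 8.14, 8.23 and 8.14 with tunicamycin and 7.35, 7.25, 7.47, 7.45 and 7.25 with vehicle. The arrays did not overlap between tunicamycin and vehicle in either genotype. The log2 difference was 0.57 ± 0.09 in NFIL3 KO livers, a ratio of 1.48, and 0.76 ± 0.09 in WT livers, a ratio of 1.70.

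Sdf4 was the exception among the 6 genes. In NFIL3 KO livers it was at 7.46, 7.38, 7.38, 7.23 and 7.41 with tunicamycin and at 7.55, 7.31, 7.63, 7.37 and 7.27 with vehicle. In WT livers it was at 7.50, 7.41, 7.68, 7.74 and 7.58 with tunicamycin and at 7.52, 7.53, 7.43, 7.51 and 7.71 with vehicle. Tunicamycin and vehicle arrays overlapped in both genotypes. The log2 difference was -0.05 ± 0.09 in NFIL3 KO livers and 0.05 ± 0.09 in WT livers, with the opposite sign between genotypes and each no larger than its SE.

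**Figure D2:**
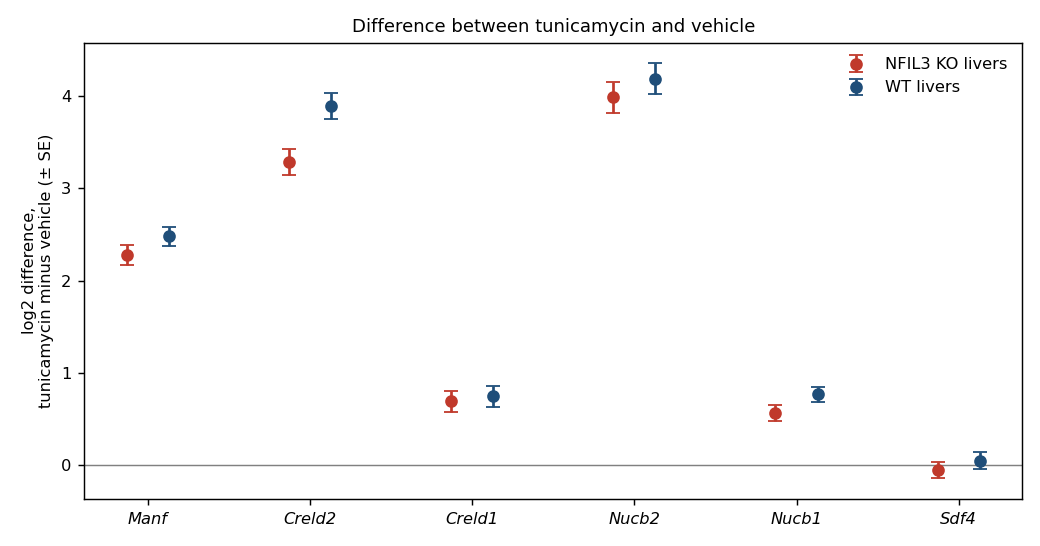
Log2 difference between tunicamycin and vehicle for the 6 genes. The vertical axis is the fitted log2 difference with its SE, and points give NFIL3 KO livers and WT livers (5 mice in each group). Nucb2, Creld2 and Manf lie between 2.27 and 4.19, Creld1 and Nucb1 between 0.57 and 0.76, and Sdf4 at -0.05 and 0.05.

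Tunicamycin arrays lay above all vehicle arrays for 5 of the 6 members in NFIL3 KO livers, beside 10.3% of all genes, and for 5 of the 6 in WT livers, beside 11.7% of all genes. Since the members were picked for this response, nothing is read from these counts. The median log2 difference over the members was 1.48 in NFIL3 KO livers and 1.62 in WT livers, against -0.03 over all genes in each genotype. Within each pair of related genes the ratios were unequal. Creld2 had a ratio of 9.77 in NFIL3 KO livers where Creld1 had 1.61, and Nucb2 had 15.8 where Nucb1 had 1.48. In WT livers the ratio was 14.9 for Creld2 and 1.68 for Creld1, and 18.2 for Nucb2 and 1.70 for Nucb1. Cdnf, the only close relative of Manf, had a log2 difference of 0.22 in NFIL3 KO livers and -0.07 in WT livers and was called in neither. Its signal was low, with group means of 4.52 to 4.75, beside array medians of 4.65 to 4.77.

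Genes with the most similar course over the 20 arrays were taken by the root mean square difference (RMS) of log2 values, after each gene was centred on its own mean. For Manf they were Dnajb11 (RMS 0.12), an Hspa5 cochaperone, Hyou1 (0.14), an ER chaperone of the Hsp70 family, and Wfs1 (0.19), an ER membrane protein, where the median over all genes was 1.23. For Creld2 they were Syvn1 (0.26), the ubiquitin ligase of ER-associated degradation, Tspyl2 (0.27) and Suco (0.30), with a median over all genes of 1.84. For Nucb2 they were Trib3 (0.30), a stress-induced pseudokinase, Aldh18a1 (0.31), an enzyme of proline synthesis, and Tspyl2 (0.33), with a median over all genes of 2.08. Creld2 was the gene at rank 4 for Nucb2, at an RMS of 0.40. The 20 arrays share the 2 treatments, so a gene with a tunicamycin difference of the same size comes out as alike.

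Other ER-lumen chaperones and folding enzymes were also higher with tunicamycin. Of 27 measured, 24 rose and 0 fell in NFIL3 KO livers, and 25 rose and 0 fell in WT livers, by limma with an adjusted p under 0.05 over all genes. By the same rule 13.5% of all genes rose and 13.7% fell in NFIL3 KO livers, and 13.7% rose and 13.7% fell in WT livers. The median log2 difference over the list was 1.04 in NFIL3 KO livers and 1.27 in WT livers. Sdf2l1, a component of ER chaperone complexes, had the highest difference, 3.14 in NFIL3 KO livers and 3.33 in WT livers. Hyou1 rose by 2.19 in NFIL3 KO livers and by 2.50 in WT livers. Dnajb11 rose by 2.38 in NFIL3 KO livers and by 2.37 in WT livers, and the prolyl isomerase Fkbp11 rose by 2.15 in NFIL3 KO livers and by 2.32 in WT livers. Creld2 and Nucb2 had larger log2 differences than each of the 27 listed genes in both genotypes, which is a description of selected genes.

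The KDEL receptors, which return escaped ER proteins from the Golgi, all rose in both genotypes. Kdelr3 rose by 2.14 in NFIL3 KO livers and by 2.47 in WT livers. Kdelr2 rose by 1.04 in NFIL3 KO livers and by 1.36 in WT livers, and Kdelr1 by 0.48 in NFIL3 KO livers and by 0.69 in WT livers. Of 12 sensors and transcription factors of the unfolded protein response, 8 rose and 0 fell in each genotype. Over all genes, 13.5% rose in NFIL3 KO livers and 13.7% in WT livers, and 13.7% fell in each. Ddit3, the proapoptotic transcription factor CHOP, rose by 4.56 in NFIL3 KO livers and by 5.48 in WT livers. Atf4 rose by 1.71 in NFIL3 KO livers and by 1.89 in WT livers, Atf6 by 1.69 in NFIL3 KO livers and by 1.74 in WT livers, and Eif2ak3 by 1.42 in NFIL3 KO livers and by 1.65 in WT livers.

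In the rest of the CREC family of Sdf4, 2 of 4 genes rose in each genotype. The share of all genes that rose was 13.5% in NFIL3 KO livers and 13.7% in WT livers. Calu rose by 1.48 in NFIL3 KO livers and by 1.49 in WT livers, and Rcn2 rose by 0.32 in NFIL3 KO livers and by 0.48 in WT livers. Rcn1 and Rcn3 were called in neither genotype. Nptn, reported as a receptor of extracellular MANF, fell by 0.33 in NFIL3 KO livers (adjusted p = 0.00428, limma) and by 0.32 in WT livers (adjusted p = 0.00545, limma). Proprotein convertases are the proteases that cleave secreted precursors such as NUCB2. Of 6 measured, 0 rose and 2 fell in NFIL3 KO livers, and 1 rose and 3 fell in WT livers. The share of all genes that fell was 13.7% in each genotype. Furin fell by 0.67 in NFIL3 KO livers and by 0.60 in WT livers, and Pcsk4 fell by 0.50 in NFIL3 KO livers and by 0.67 in WT livers. Pcsk5 fell by 0.52 and Pcsk6 rose by 0.33 in WT livers, and neither was called in NFIL3 KO livers. There the log2 difference was -0.23 for Pcsk5 (adjusted p = 0.0752, limma) and 0.13 for Pcsk6 (adjusted p = 0.399, limma). The interaction was 0.30 ± 0.13 for Pcsk5 and -0.20 ± 0.14 for Pcsk6 and was called for neither. The comparisons of tunicamycin with vehicle in each genotype use separate arrays, and the fit estimates 1 spread from all of them.

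**Figure D3:**
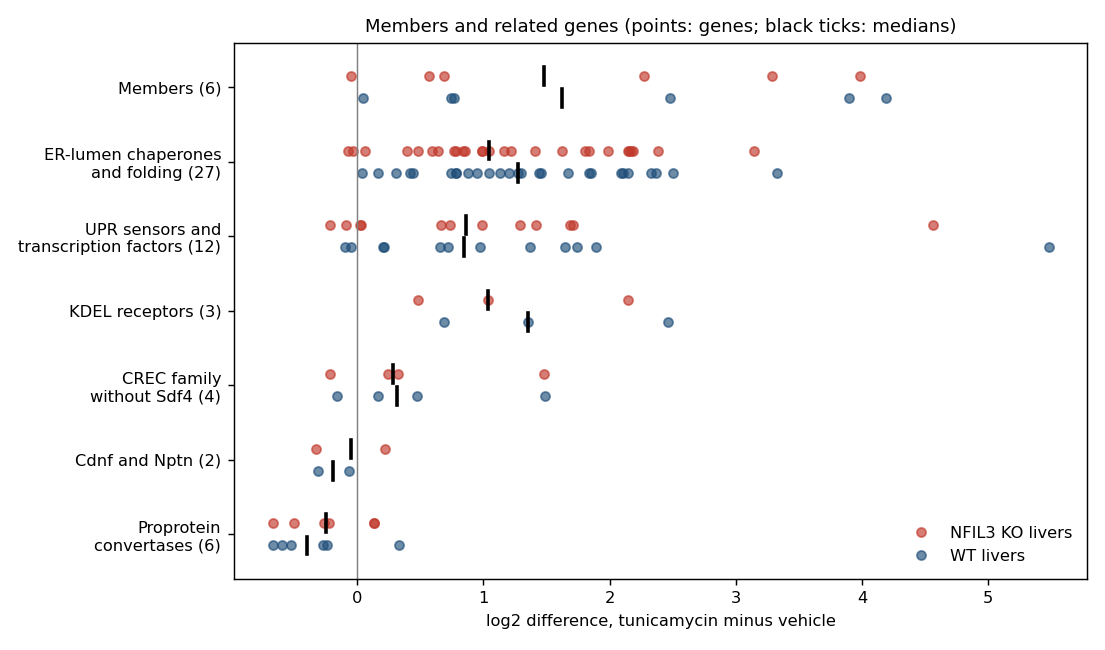
Log2 difference between tunicamycin and vehicle for the 6 members and for lists of related genes. The horizontal axis is the log2 difference, each row is a list with its number of measured genes, points are genes in NFIL3 KO livers or WT livers, and black ticks are list medians. The medians over the chaperones are 1.04 in NFIL3 KO livers and 1.27 in WT livers, and those over the members are 1.48 in NFIL3 KO livers and 1.62 in WT livers.

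The comparison of NFIL3 KO with WT livers asked whether these genes depended on genotype. With tunicamycin, 0 of the 6 members passed an adjusted p of 0.05 in limma, beside 0.243% of all genes, and 0 had non-overlapping arrays, beside 1.49% of all genes. With vehicle, 0 of the 6 passed, beside 0.0225% of all genes, and 0 had non-overlapping arrays, beside 1.23%. The interaction, the tunicamycin difference in NFIL3 KO livers minus that in WT livers, was called for 0 of the 6, beside 0.00902% of all genes. At an unadjusted p under 0.05, limma placed Sdf4 with tunicamycin, where 1986 of all 22180 genes met this threshold. It also placed Creld2 with vehicle, where 1184 genes met it, and in the interaction, where 1019 genes met it. These comparisons share arrays with one another.

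Creld2 had the largest genotype difference of the 6 members, in the vehicle groups. It averaged 9.55 ± 0.37 in NFIL3 KO livers with vehicle and 9.01 ± 0.28 in WT livers with vehicle (SD, n = 5 each). Of the 5 NFIL3 KO arrays, 4 lay above every WT array, and replicate 4, at 8.92, lay among them. The log2 difference was 0.54 ± 0.14, a ratio of 1.45, with a 95% interval of 0.25 to 0.83. The adjusted p over all genes was 0.396 (limma), the unadjusted limma p was 0.000916, and the exact two-sided permutation p over all splits of the arrays was 0.0397, unadjusted. Without NFIL3 KO vehicle replicate 4 the difference was 0.70 ± 0.11 with an adjusted p of 0.0252 (limma), so that this array decides the call, and over all settings tried the adjusted p lay between 0.0252 and 0.749. On that array Manf, Creld1, Creld2 and Nucb2 were all at the lowest level of the group, and so were 11 of the 27 chaperones, beside 19.7% of all genes. WT vehicle replicate 2 was the lowest of its group for Manf, Creld1 and Creld2 and for 13 of the 27 chaperones, beside 23.0% of all genes.

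With tunicamycin Creld2 averaged 12.84 ± 0.035 in NFIL3 KO livers and 12.90 ± 0.0345 in WT livers (SD, n = 5 each). The difference was -0.06 ± 0.14, with an adjusted p of 0.932 (limma) and an interval of -0.36 to 0.23. Here 4 of the 5 NFIL3 KO arrays lay below every WT array, and the exact permutation p, which uses the small spread of these groups alone, was 0.0238, unadjusted. The fit pools the spread of all 4 groups. Fitted on the compared groups only, the difference was -0.06 ± 0.08 with tunicamycin (adjusted p = 0.892, limma) and 0.54 ± 0.18 with vehicle (adjusted p = 0.616, limma). With tunicamycin the adjusted p lay between 0.892 and 0.972 over all settings. The interaction for Creld2 was -0.60 ± 0.20, with an interval of -1.02 to -0.19, an unadjusted p of 0.00627 and an adjusted p of 0.992 (limma). Over the other settings tried it lay between -0.76 and -0.52, and the adjusted p between 0.235 and 1.

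Sdf4 was lower in NFIL3 KO livers than in WT livers with tunicamycin by a small amount. It averaged 7.37 ± 0.09 in NFIL3 KO livers and 7.58 ± 0.13 in WT livers (SD, n = 5 each), and 4 of the 5 NFIL3 KO arrays lay below every WT array. The difference was -0.21 ± 0.09, with an interval of -0.40 to -0.02 and an adjusted p of 0.491 (limma). The exact permutation p was 0.0159, unadjusted. With vehicle the difference was -0.11 ± 0.09 with an adjusted p of 0.981 (limma), and the arrays overlapped. The interaction was -0.10 ± 0.13.

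**Figure D4:**
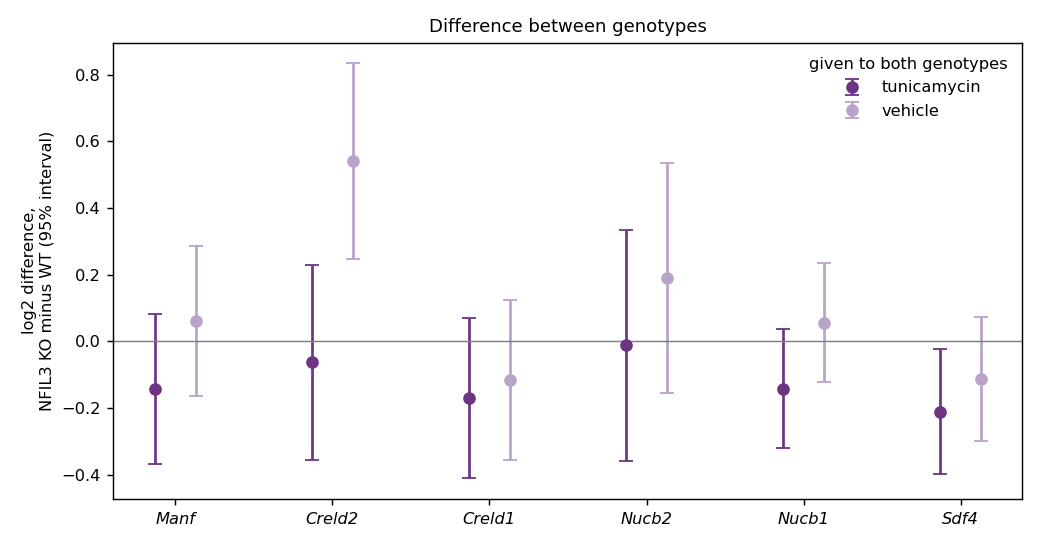
Log2 difference between NFIL3 KO and WT livers for the 6 genes. The vertical axis is the fitted difference with its 95% interval, and points give the comparison with tunicamycin and with vehicle (5 mice in each group). The interval of Creld2 with vehicle, 0.25 to 0.83, and that of Sdf4 with tunicamycin, -0.40 to -0.02, leave out 0, and no member passed after adjustment over all genes.

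The other 4 members differed between genotypes by 0.19 or less on the log2 scale. With tunicamycin the difference was -0.14 ± 0.11 for Manf, -0.17 ± 0.12 for Creld1, -0.14 ± 0.09 for Nucb1 and -0.01 ± 0.17 for Nucb2, with adjusted p of 0.651 to 0.993 (limma). The exact permutation p was 0.0714 for Manf, 0.119 for Creld1, 0.0635 for Nucb1 and 0.881 for Nucb2. Without NFIL3 KO tunicamycin replicate 3 the Manf difference was -0.09 ± 0.11 and the Nucb2 difference 0.02 ± 0.18. The sign for Nucb2 was not settled, since 6 of the settings tried, cyclic loess normalization among them, gave a difference above 0. The 95% intervals of these differences allowed Manf to lie between -0.37 and 0.08, and Nucb2 between -0.36 and 0.33.

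With vehicle the difference was 0.06 ± 0.11 for Manf, -0.11 ± 0.12 for Creld1, 0.06 ± 0.09 for Nucb1 and 0.19 ± 0.17 for Nucb2, with adjusted p of 0.981 to 0.995 (limma). The exact permutation p lay between 0.413 and 0.651. The interaction was -0.20 ± 0.15 for Manf, -0.06 ± 0.16 for Creld1, -0.20 ± 0.12 for Nucb1 and -0.20 ± 0.24 for Nucb2, each with an adjusted p of 1 (limma). The median over the 6 members was -0.14 with tunicamycin, 0.06 with vehicle and -0.20 for the interaction, against 0.00 over all genes in each. With tunicamycin the median was -0.08 over the chaperones, -0.05 over the sensors and transcription factors and -0.29 over the KDEL receptors. It was -0.01 over the rest of the CREC family, 0.00 over Cdnf and Nptn and 0.03 over the proprotein convertases. For the interaction these medians were -0.10, -0.13, -0.32, -0.03, 0.14 and 0.07 in the same order. Of the 54 genes in the lists of related genes, 0 were called by limma in either genotype comparison or in the interaction. An unadjusted limma p under 0.05 was found for 7 with tunicamycin, 2 with vehicle and 5 in the interaction. Over all 22180 genes it was found for 1986 with tunicamycin, 1184 with vehicle and 1019 in the interaction. Of 12 exact tests run on the members over both genotype comparisons, 3 gave an unadjusted p under 0.05, and the smallest p that 5 against 5 arrays can give is 0.00794.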

How the data were processed

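Total RNA from 20 mouse livers was hybridised to MoGene-2_0-st Affymetrix arrays. The authors deposited log2 values, made in Partek Genomics Suite 6.6 with RMA background correction, quantile normalization and median polish. Quantile normalization gives all arrays nearly the same distribution, so a shift common to all genes is not visible. The number of arrays limits the precision, and no counts or depths exist. Of 41345 probesets, 23521 had 1 gene symbol, 1820 several and 16004 none. Probesets with 1 symbol were averaged per symbol into 22180 genes, with no filter on low values, and each member had 1 probeset.

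A linear model with a mean for each of the 4 groups was fitted to all 20 arrays (limma 3.58.1, R 4.3.3), with moderated variances and Benjamini-Hochberg adjustment over all genes of each comparison. Genes were called at an adjusted p under 0.05. The scripts were tested on simulated data. Single members were also compared by exact two-sided permutation tests (scipy 1.17.1). Samples were grouped by their titles, and the 5 arrays of a group are from separate mice. The replicate numbers were not taken to pair the samples. Alternatives changed the normalization, the treatment of probesets, the filter, the model or the arrays, leaving out each in turn.

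The members and gene lists were chosen with earlier results of these data known. Named genes were the members, Nfil3, all genes of lists of up to 4 genes, up to 4 called genes with the largest change from longer lists, and the 3 genes most like each member whose mean tunicamycin difference exceeded 1. Pdia4, Sdf2, Erp29 and Mesd of the chaperone list were not analysed here. The other marker lists were sinusoidal endothelial, stellate, cholangiocyte, neutrophil, B and plasma, T and NK and pancreatic acinar. They had 0 to 3 genes called with tunicamycin in each genotype, all of them lower, and 0 called by genotype in limma. Of the 8 sinusoidal endothelial markers, 2 fell in NFIL3 KO livers and 3 in WT livers, beside 13.7% of all genes in each. Each of the remaining lists had 0 or 1 gene called with tunicamycin in a genotype. Of 60 marker genes of all lists, 1 with tunicamycin and 3 with vehicle had an unadjusted p under 0.05 between genotypes. Over all 22180 genes, 1986 with tunicamycin and 1184 with vehicle did. Promoter windows came from RefSeq (GRCm38.p6), and the array values carry no coordinates.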

Additional observations from a re-analysis of the deposited data

Results flagged for a closer look

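For Nucb2, NFIL3 KO vehicle replicate 5 was at 7.84 on the log2 scale, where the other 4 arrays of the group lay between 7.11 and 7.25. The gap to the nearest array was 0.806 of the range of the group, above Dixon's critical value of 0.71 for 5 samples. Without it the log2 difference between tunicamycin and vehicle in NFIL3 KO livers was 4.12 ± 0.16, and the difference between NFIL3 KO and WT livers with vehicle was 0.06 ± 0.16. This was 1 of 28 groups examined (6 members and Nfil3 in 4 groups), and chance flags about 1 in 20 groups.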

How the results depend on the processing

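The settings were 11 alternatives and 20 fits that each left out 1 array. In the main fit 0 members were called by genotype or in the interaction, so no called member result could change direction. The tunicamycin differences of Manf, Creld1, Creld2, Nucb1 and Nucb2 kept their sign throughout. Of the 27 chaperones, 24 rose in NFIL3 KO livers in every fit, and 24 or 25 rose in WT livers. Calls of the other related genes were not compared over the settings. Differences near 0 changed sign in some settings, and the genotype results among them were called in none. These were Nucb2 between NFIL3 KO and WT livers with tunicamycin in 6 settings (range -0.06 to 0.04), Manf between NFIL3 KO and WT livers with vehicle in 1 (range -0.02 to 0.13), the interaction for Creld1 in 1 (range -0.12 to 0.05) and Sdf4 between tunicamycin and vehicle in WT livers in 1 (range -0.02 to 0.09). The number of members called between NFIL3 KO and WT livers with vehicle was 0 and ranged from 0 to 1 when single arrays were left out, with the 1 being Creld2 without NFIL3 KO vehicle replicate 4. The exact permutation tests put Creld2 under both treatments and Sdf4 with tunicamycin under an unadjusted 0.05, whereas limma adjusted over all genes did not. The cause of these shifts was not tested. The counts over all genes behind the background shares moved more. Between NFIL3 KO and WT livers with tunicamycin, 54 genes were called, against 25 at the level of probesets, 29 with no moderation of variances, 19 with only the groups compared and 72 among genes above the median level, and 26 to 67 when single arrays were left out. With vehicle 5 were called, against 9 with array weights, 3 with only the groups compared and 1 with no moderation, and 2 to 7 when single arrays were left out. For the interaction 2 were called, and 1 to 3 over all settings. With the replicate block the calls among the members stayed at 0, and 36 genes were called with tunicamycin, 4 with vehicle and 1 in the interaction. Same-numbered arrays had a mean correlation of deviations between -0.05 and 0.05 in each pair of groups. The samples were treated as unpaired, though a low mean correlation over all genes cannot exclude a pairing.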
